A study of Homo sapiens with 6 samples.

Results

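SR proteins are RNA-binding splicing factors that carry a domain rich in serine and arginine, and CLK kinases phosphorylate that domain. The 10 genes described here are 8 SRSF genes (SRSF1, SRSF2, SRSF3, SRSF4, SRSF5, SRSF6, SRSF7 and SRSF11) and 2 kinase genes (CLK1 and CLK4), taken by their symbols from a deposited table of 28395 genes. All 10 were found, and each averaged at least 10 reads. RNA was sequenced from A375 cells, an established human melanoma line labelled as wild type, which had been kept for 6 h in medium with ozonated olive oil (OZO) or, as control, with plain olive oil (OLO), both at 0.01%. Each group had 3 libraries. The labels do not say whether they came from separate cultures, and the study describes its A375 transcriptome data as coming from independent experiments. The value used for each gene is the authors' mean over all 6 libraries of both groups. It therefore describes A375 cells exposed to either oil. The difference between OZO and OLO and the spread between libraries are not given here, and no order of levels was tested.

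SR proteins bind short motifs in exons and help the spliceosome choose splice sites, and several of them also take part in export of mRNA from the nucleus. Phosphorylation of the serine and arginine domain by SRPK kinases in the cytoplasm and by CLK kinases in the nucleus controls where SR proteins reside and what they bind. Many SR genes limit their own output, because an excess of the protein favours inclusion of an exon with an early stop codon, and such a transcript is removed by nonsense-mediated decay. CLK1 and CLK4 transcripts are known to be held in the nucleus with introns retained, and they can be spliced to completion under stress.

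Transcripts of both these kinds are annotated for most members. In GENCODE 44, a gene annotation on the GRCh38 genome, each of the 10 members has at least 1 transcript classed as a target of nonsense-mediated decay, compared with 47.5% of the 12432 protein-coding genes that averaged at least 10 reads. A transcript with a retained intron is annotated for 9 of the 10 members, all but SRSF6, compared with 59.9% of those genes. The members have 6 to 19 transcripts each, and genes with more transcripts hold such classes more often. Among the 6833 protein-coding genes with 6 to 19 transcripts, 56.7% have a decay target, 73.5% have a retained intron and 45.3% have both. Of the 118 transcripts of the members, 38 are protein-coding, 26 are decay targets and 40 retain an intron. Of the 72403 transcripts of those 6833 genes, 36987 are protein-coding, 8036 are decay targets and 14803 retain an intron. Retained-intron transcripts outnumber protein-coding ones in 4 members. CLK1 has 8 against 3, CLK4 has 7 against 2, and SRSF3 and SRSF4 have 4 against 2 each. In what share of other genes they do so was not computed. SRSF7 has the most decay targets, with 6. These are counts of annotated transcripts and not of RNA in A375 cells. The level of a gene is a single value for all reads counted for it, so coding and decaying forms cannot be told apart in the values below. Whether reads particular to the decaying forms were counted is unknown.

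**Figure D1:**
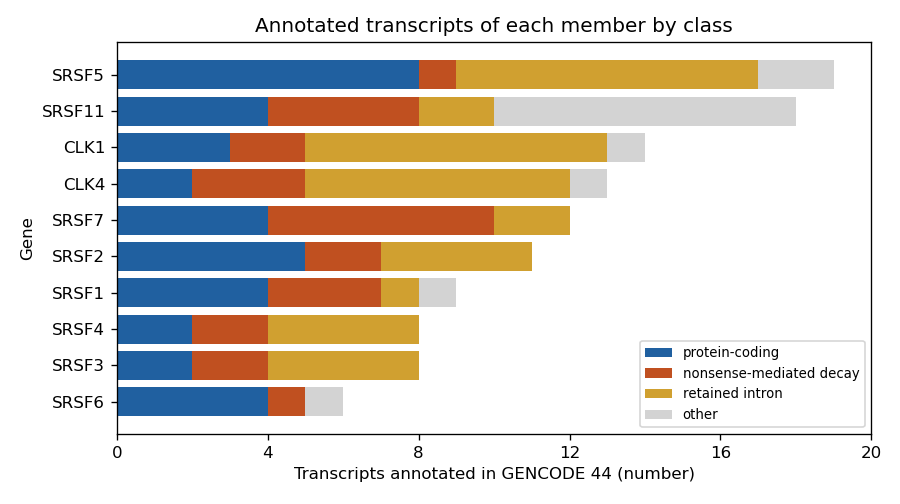
Number of transcripts annotated in GENCODE 44 for each member, split by class. SRSF5 has the most transcripts (19) and SRSF6 the fewest (6); every bar holds a decay class and all but that of SRSF6 a retained-intron class.

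For 6 members, 5 of them SRSF genes, the early stop codon of a decay target lies in an exon that overlaps neither a coding exon of the gene nor an exon of its canonical transcript. The sequence around that stop is shown because this exon lies outside the coding sequence. Only the members were searched for such exons. The share of other genes that have one is unknown, so the count is not read as particular to the members. The study's methods do not state which exons were counted, so whether reads on these exons enter the level of the gene is unknown. Each line gives 30 bases of the transcript, 5′ to 3′, read from the GENCODE 44 transcripts, with the stop codon in capitals. Where a gene has several such exons the longest is shown.
SRSF3: cttctcaccaccctcTGAatctgcattagc
SRSF4: ttcttacaaggaaaaTGAgtgaatgtggga
SRSF6: gcagccttttgccatTAGacgcagggtgat
SRSF7: ttgagtcagtcgcctTGAttcagaatgtca
SRSF11: acagcttttgaaagtTGAgagcacacccct
CLK4: gatattttaaaaaatTAAatcagtctgttc
The exon of SRSF3 spans chr6:36599821-36600276 on the plus strand and is 456 bases long. That of SRSF4 lies at chr1:29165890-29166064 (minus strand, 175 bases), that of SRSF6 at chr20:43459153-43459420 (plus strand, 268 bases) and that of SRSF7 at chr2:38748898-38749346 (minus strand, 449 bases). The exon of SRSF11 lies at chr1:70231859-70231975 (plus strand, 117 bases) and that of CLK4 at chr5:178619838-178620673 (minus strand, 836 bases). The stop is TGA in 4 of the 6 exons, TAA in that of CLK4 and TAG in that of SRSF6.

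The level of a gene is given as CPM, the number of its reads in every 1000000 counted reads, taken back from the authors' mean of log2 CPM. Reads per library are the geometric mean implied by the same value for libraries of 18409903 counted fragments, the geometric mean over the libraries as recovered from the lowest values of the table. The interval after each level is the exact Poisson interval (95%) of the implied reads of all 6 libraries together. It covers the counting error of that pooled depth only, so that of a single library is wider. It leaves out the spread between libraries. Among the members SRSF1 (NCBI Gene 6426, chr17:58000919-58007346), which promotes the use of nearby 5′ splice sites and acts as an oncogene when overexpressed, had the highest level per gene. SRSF1 had a mean log2 CPM of 9.40, which is 677 CPM (672 to 682) and about 12465 reads per library. It ranked 159th from the top among the 21383 genes with at least 1 read.

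SRSF3 (NCBI Gene 6428, chr6:36594353-36605600), the shortest SR protein of the list and an adaptor for mRNA export, followed with a mean log2 CPM of 9.12, or 555 CPM (551 to 560). SRSF11 (NCBI Gene 9295, chr1:70205682-70253052), an SR protein found in spliceosomal complexes, had a mean log2 CPM of 8.66, or 403 CPM (399 to 407). SRSF2 (NCBI Gene 6427, chr17:76734115-76737333), a nuclear speckle protein also known as SC35, had 8.38, or 333 CPM (330 to 337). SRSF6 (NCBI Gene 6431, chr20:43457893-43466046) had 8.17, or 289 CPM (286 to 292). SRSF6, like SRSF4 and SRSF5, has an RNA recognition motif followed by a second, atypical one. These members each exceeded 97% of the genes with at least 1 read.

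SRSF5, SRSF7 and SRSF4 were close to each other on the CPM scale. SRSF5 (NCBI Gene 6430, chr14:69726900-69772005) had a mean log2 CPM of 7.46, or 176 CPM (173 to 178). SRSF7 (NCBI Gene 6432, chr2:38743599-38751494), an export adaptor related to SRSF3, had 7.43, or 173 CPM (170 to 175). The counting intervals of SRSF5 and SRSF7 overlapped, and no other pair of members had overlapping intervals. SRSF4 (NCBI Gene 6429, chr1:29147743-29181900) had 7.32, or 159 CPM (157 to 162).

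CLK1 and CLK4 encode nuclear kinases that phosphorylate serine, threonine and tyrosine. Both lay below all 8 SRSF genes on the CPM scale. CLK1 (NCBI Gene 1195, chr2:200853009-200864691) had a mean log2 CPM of 6.64, which is 99.8 CPM (97.9 to 101.6) and about 1836 reads per library. CLK4 (NCBI Gene 57396, chr5:178602664-178630615) had 4.82, which is 28.3 CPM (27.3 to 29.3) and about 520.0 reads per library. CLK1 exceeded 88.7% and CLK4 70.9% of the genes with at least 1 read. Among the 13773 genes that averaged at least 10 reads, whose median log2 CPM was 4.47, CLK4 lay near the middle, above 54.8% of them. The members together had 2894 CPM, of which the SRSF genes had 2766 and the kinases 128.

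**Figure D2:**
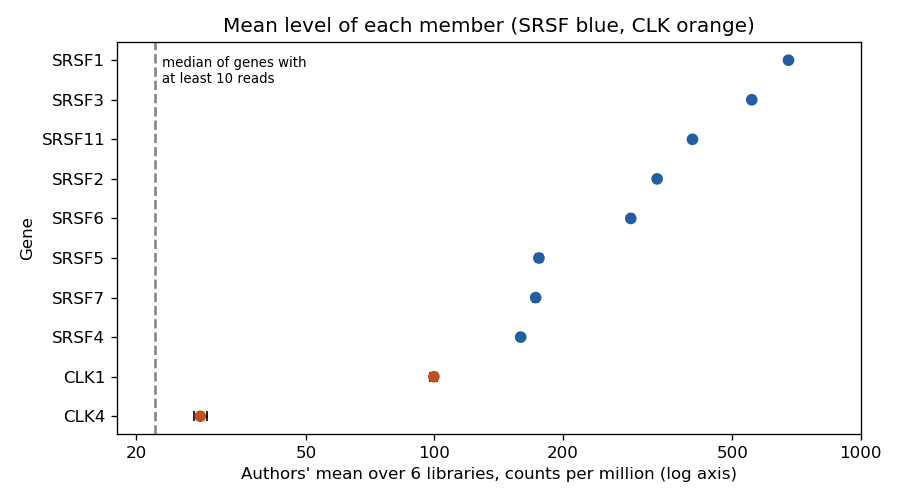
Authors' mean level of each member over all 6 libraries in CPM on a log axis, with SRSF genes in blue, CLK genes in orange and 95% counting intervals as bars, most of them narrower than the points. The SRSF genes span 159 to 677 CPM, CLK1 sits at 99.8 and CLK4 at 28.3, near the dashed median of genes with at least 10 reads.

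Longer transcripts collect more reads, so genes were compared with each other per length. CPM was divided by the length of all exons of the gene annotated in GENCODE, merged, in kilobases. Which exons the authors counted is not stated in the study's methods, so this length may include exons that were not counted. Where it does, the value is lower than it would be per kb of counted exons. Per kb of merged exons SRSF1 stood at 117 and SRSF2 at 112 CPM. SRSF3 followed with 78.0, SRSF6 with 59.0, SRSF11 with 47.6, SRSF7 with 42.7 and SRSF5 with 32.8 CPM per kb. CLK1 had 19.5, SRSF4 had 18.1 and CLK4 had 3.57 CPM per kb. The median was 45.2 CPM per kb over the 10 members and 4.47 over the genes with at least 10 reads, of which 13313 had a length. On this scale 9 of the 10 members lay above the latter median, all but CLK4, and 7 lay above its 90th percentile of 31.5.

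The merged exons include retained introns and long last exons, and the order within the family depended on the definition of length. Under 4 definitions of length (merged exons, longest transcript, canonical transcript and coding length), 4 of the 9 pairs of neighbours kept their order. These were SRSF3 above SRSF6, SRSF11 above SRSF7, SRSF5 above CLK1, and SRSF4 above CLK4. CLK4 was the lowest member under each definition. SRSF1, SRSF2 and SRSF3 took the first 3 places under each definition, in differing order. SRSF1 led by merged exons, and SRSF2 led with 176 CPM per kb of the canonical transcript. SRSF3 led with 131 CPM per kb of the longest transcript and with 1129 per kb of coding length. The CPM of the whole gene was used under each definition, so values by coding length are not levels of the coding sequence alone. SRSF5, whose merged exons cover 5357 bases and whose canonical transcript has 1496, moved from 32.8 to 118 CPM per kb between these lengths and from place 7 to place 4. SRSF4, with 8806 and 2300 bases, moved from 18.1 to 69.3 CPM per kb. The counting intervals are far smaller than these shifts.

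**Figure D3:**
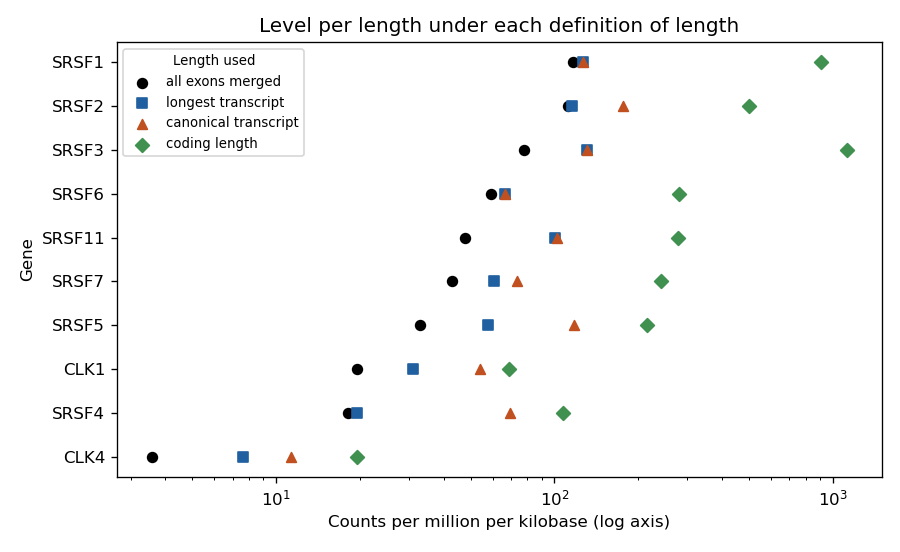
Level of each member in CPM per kilobase on a log axis, under 4 definitions of length shown by marker. CLK4 is lowest under each, SRSF1, SRSF2 and SRSF3 are the highest group under each, and SRSF5 and SRSF4 move most between merged exons and the canonical transcript.

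SRSF1, SRSF2 and SRSF3 made up 60.5% of the summed level per length of the 8 SRSF members, with 23.1%, 22.1% and 15.4%. SRSF4 made up 3.57%. These shares are per kb of merged exons and moved with the length. Under the other definitions SRSF1 made up 14.7% (canonical transcript) to 24.8% (coding length), SRSF2 13.7% (coding length) to 20.4% (canonical transcript) and SRSF3 15.2% (canonical transcript) to 30.8% (coding length). SRSF4 made up 8.03% by canonical transcript and 2.89% by longest transcript, and SRSF5 made up 6.47% by merged exons and 13.6% by canonical transcript. The summed level per length of the SRSF members was 22.0 times that of CLK1 and CLK4, and between 13.2 times (canonical transcript) and 41.5 times (coding length) under the other definitions. CLK1 stood above CLK4 by 5.46 times per kb of merged exons, and by 3.51 to 4.78 times under the others.

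The remaining SRSF genes were lower per length than the median of the listed ones, which was 53.3 CPM per kb. SRSF10, an SR protein that represses splicing when dephosphorylated, had 27.7, SRSF9 had 17.2 and SRSF8, a gene that arose by retroposition, had 7.28 CPM per kb. SRSF12 had about 2.19 reads per library, below the floor of 3 reads at which a level was no longer given. The 7 other kinases of SR proteins had a median of 2.62 CPM per kb, which includes the value listed for CLK2. Without CLK2 the median would lie between DYRK1A (2.62) and SRPK2 (14.9 CPM per kb). SRPK1 (29.3), PRPF4B (25.3) and SRPK2 (14.9 CPM per kb) lay above CLK4, while DYRK1A (2.62), CLK3 (2.44) and SRPK3 (0.0886 CPM per kb) lay below CLK4. CLK3 lay above CLK4 per kb of the canonical transcript, with 25.9 against 11.3 CPM per kb. CLK2, a further kinase of the CLK family, was listed at 0 reads. ENTREP3, SCAMP3, HCN3 and PKLR, which lie beside it on chromosome 1, also had under 1 read per library, and whether reads from these genes could be assigned in the authors' alignment was not tested. The 0 is therefore not given as a level of CLK2 RNA.

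Of 15 SR-related splicing proteins, all had at least 10 reads and 14 lay above the median of genes with at least 10 reads, with a list median of 28.0 CPM per kb. PNN, a nuclear speckle protein, was the highest with 64.5 CPM per kb. U2AF1, the small subunit of the factor that binds the 3′ splice site, was the lowest with 0.276 CPM per kb and about 55.9 reads per library. Its partner U2AF2 had 58.9 CPM per kb. Whether all reads of U2AF1 could be assigned in the authors' alignment was not tested, so no difference between the partners is drawn from these values. The 11 hnRNP genes, whose proteins often oppose SR proteins at splice sites, had a median of 107 CPM per kb, from 67.3 for HNRNPL to 416 for HNRNPA1. All 11 lay above the SRSF median, and SRSF1, SRSF2 and SRSF3 lay within their range. HNRNPA1 and other hnRNP genes have processed pseudogenes, so their counts are uncertain. Of 8 genes of nonsense-mediated decay, UPF3B was the highest (33.2 CPM per kb) and SMG6 the lowest (3.67 CPM per kb). TNPO3, the importin that carries phosphorylated SR proteins into the nucleus, had 36.6 CPM per kb, and NXF1, the mRNA export receptor to which SRSF3 and SRSF7 bind, had 40.1 CPM per kb.

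**Figure D4:**
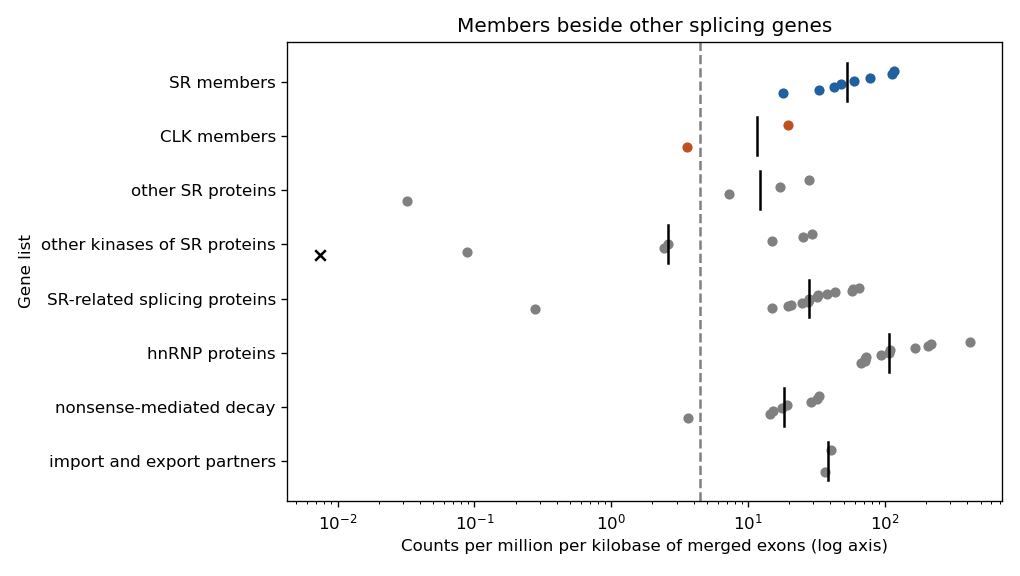
Level in CPM per kilobase of merged exons (log axis) of each gene of 8 lists, with the list median as a bar, the median of genes with at least 10 reads as a dashed line, and a cross for CLK2, which had no read and is drawn at the value the table lists for it. The median bar of the other kinases includes that value. The hnRNP genes are highest, the SRSF members next, and both CLK members lie to the left of the SRSF median.

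Reads of some members could be shared with other genes. GENCODE lists 9 processed pseudogenes of members, of SRSF1, SRSF2, SRSF3 and SRSF6. Of these, 1 is in the table, SRSF3P2, with about 2.12 reads per library against 10222 for SRSF3. Reads that fell on the pseudogenes outside the table cannot be seen. The search went by symbol, so it did not cover SRSF8, the retroposed gene above, which had about 576 reads per library. The exons of SRSF2 overlap those of MFSD11, on the opposite strand, over 823 bases. MFSD11 had a mean log2 CPM of 4.65 against 8.38 for SRSF2. The kit marks strand, but whether strand was used in counting is not stated, so reads in these bases cannot be assigned to one of the pair with certainty. On the same strand, an unnamed protein-coding gene shares 1890 exon bases with SRSF1 and another shares 654 with SRSF6, and neither is in the table.

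Promoter sequences from RefSeq on GRCh38.p14 (300 bases each, from 250 before the start) were found for 9 members, all but SRSF2. Their median GC content was 62.7%, against 58.7% over 35116 promoters. The motifs searched, on both strands, were the TATA box TATAAA, the CCAAT box (CCAAT), the GC box GGGCGG, the core of ETS sites CCGGAAG and the cAMP response element TGACGTCA, and none of them contains another. GGGCGG was found in 6 of the 9 promoters and in 45.0% of all promoters. TATAAA was found in those of SRSF3 and SRSF11 and in 11.5% of all, CCGGAAG in those of SRSF4 and SRSF5 and in 10.3% of all, CCAAT in that of SRSF3 and in 34.6% of all, and TGACGTCA in none of the 9 and in 1.85% of all. A match of letters is a description and not a binding site.

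The labelled cell type was set against marker genes. SOX10, a transcription factor of the melanocyte lineage, had about 919 reads per library, and MITF, the regulator of pigment genes, had 499. The pigment genes were low or absent, with 36.6 reads for MLANA, 5.75 for PMEL, 4.74 for DCT and no read for TYR, while S100B and S100A1 had 51.0 and 46.4 reads. Of the markers of other cells, the defining genes KRT5, KRT1, COL1A2, PTPRC, CD3E, VWF and CDH5 had at most 3 reads per library. KRT14 had 77.5 reads, LUM 87.6, COL1A1 22.3, DCN 5.12 and PECAM1 19.5, and the broadly expressed KRT10 and CD68 had 469 and 603. Whether these marker levels differ between OZO and OLO was not tested.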

How the data were processed

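RNA sequencing of A375 cells in 2 groups of 3 libraries was analysed. Per the study's methods and the submitters' processing notes, the authors aligned paired-end reads to hg38 with HISAT2 2.1.0, counted them per gene with featureCounts 2.1.1 and fitted limma-voom 3.58.1. The authors' deposited column used here holds the mean log2 CPM of each gene over all libraries, with 0.5 read added to every count. Normalization factors and filters are not stated. The other numeric columns hold the authors' own comparison (fold change, moderated t, p-values and log-odds) and were not used, so no test was run.

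The lowest value, shared by the 7012 genes with no read, gives the geometric mean library size. The product over libraries of 2 × (count + 0.5) came out as odd whole numbers (within 0.01) for 11058 of the 11058 genes where this product was under 500. The size of each library is unknown. For lengths and transcript classes, the Ensembl identifiers of 25497 genes were found in GENCODE 44. Coding length is that of the canonical transcript, since a reference protein table was not used here. Python 3.11.15, pandas 2.3.3 and scipy 1.17.1 were used. Alternatives tried were the 0.5 read taken off, other lengths, other genes to rank against and the family of 12 SRSF genes.

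The members and lists were chosen with earlier results of these data known. Named genes are the members, the highest and lowest gene of each other list, every gene of lists of 7 or fewer and any listed gene with no read. U2AF2, SRSF3P2, MFSD11 and the single markers were named after their values were seen. Some listed genes are not reported here.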

Additional observations from a re-analysis of the deposited data

How the results depend on the processing

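No paired analysis was possible because 1 mean over all libraries was the only value used. For the same reason a fit by limma, leaving out each replicate and a filter on low values per library were not run. Taking off the 0.5 read left the median of the members at a log2 CPM of 7.82. The canonical length, the order under other lengths, and the ranking per length against genes with at least 10 reads were alternatives added after seeing the data. The median of the members per length, a log2 CPM per kb of 5.50 by merged exons, was 5.99 by longest transcript, 6.43 by canonical transcript and 8.02 by coding length, since each of these is shorter than the merged exons. The median percentile of the members, 95.7 among genes with at least 1 read, was 96.8 among all genes, 93.3 among genes with at least 10 reads and 94.5 among protein-coding genes with at least 1 read. Per length the median percentile was 95.8, and 93.7 among genes with at least 10 reads. Of the 10 places in the order per length, 2 were the same on the scale per gene, 5 by longest transcript, 3 by canonical transcript and 5 by coding length. The share of SRSF1 in the summed level per length, 23.1% of the 8 listed SRSF genes, was 20.9% of all 12. SRSF12 was under the floor of 3 reads, and the spread between libraries is unknown for each value.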

Other observations

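CLK2 was listed at 0 reads although the related CLK3 had about 885 reads per library. CLK2 lies in a run of 5 protein-coding genes on chromosome 1 that had at most 3 reads. From chr1:155247205 to 155301438 (GRCh38), ENTREP3 had 0.285, SCAMP3 0.221, CLK2 0, HCN3 0.101 and PKLR 0.154 reads per library. SCAMP3 encodes a broadly expressed membrane protein of the secretory pathway. Beyond the end of the run FDPS had 1546 and RUSC1 525 reads. The other 9 of the 14 protein-coding genes within 100000 bases of CLK2 had at least 10 reads. CLK2P1, a pseudogene of CLK2, had 1.21 reads. The cause was not tested. These genes were looked at after the level of CLK2 was seen.

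U2AF1, on chromosome 21, had 55.9 reads per library, against 4378 for U2AF2, with which its protein forms a heterodimer. Of the other protein-coding genes within the same distance, CBS had 38.6 and PKNOX1 537 reads, and CRYAA, a lens crystallin gene, had none. The cause was not tested.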
